A study of Mus musculus with 18 samples.

Results

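Nos2 encodes inducible nitric oxide synthase, the enzyme that makes nitric oxide from arginine in cells exposed to bacterial products or inflammatory cytokines. It was followed here as 1 gene model, uc007kkc.1, of 27473 in a table of RNA sequencing counts from 3T3-L1 adipocytes. The gene model was picked by its identifier, and it stood out earlier because its count was near 0 without lipopolysaccharide (LPS) and high with it, in both hairpin lines. Its levels with and without LPS are therefore given as a description, with no test. The difference between the hairpins under LPS was not what the choice rested on, and it was tested. A gene model chosen as high with LPS in both lines is, however, less likely to be one that is lost in either.

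The study asked how the adipocyte transcriptome changes when the level of the transcription factor IRF3 is altered. All 18 libraries came from differentiated 3T3-L1 cells at passage 15, a mouse fibroblast line that turns into fat cells in culture, and every group carried a lentiviral vector for 6 days. The 6 groups of 3 libraries were Irf3_2D (labelled as overexpressing Irf3; the labels do not explain 2D), EGFP (its control, green fluorescent protein), shIrf3 with LPS, shLuc with LPS, shIrf3 (a short hairpin RNA against Irf3) and shLuc (a control hairpin, named for luciferase). LPS, a component of the bacterial outer membrane, was given to the knockdown cells for a further 6 days. The labels do not give its duration in shLuc cells, nor say whether cells without LPS were kept as long, so the effects of LPS and of a longer culture cannot be told apart. Where the groups with LPS are compared, the hairpin cannot be told apart from a possible difference in LPS duration. Nothing in the labels ties replicates to separate cultures, and the p-values therefore rest on a spread between libraries that may be technical.

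Mammals have a small family of nitric oxide synthase genes, and Nos2 is the one whose activity is set mainly by how much of the transcript and protein is made. LPS binds Toll-like receptor 4, which signals through one branch that activates NF-κB and through another, using the adaptor TRIF, that activates IRF3 and leads to interferon-β. In mouse macrophages, NF-κB and interferon signalling both act on Nos2 transcription. Adipocytes carry Toll-like receptor 4 as well.

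The gene model lies on the plus strand of chromosome 11 in build mm9, from 78734361 to 78773626. It has 27 exons of 50 to 471 bases, 3990 bases in all, which make up 10.2% of its span of 39266 bases. The name was checked against the 27-exon Nos2 transcript of the GENCODE annotation, which is of build GRCm38 and also lies on the plus strand of chromosome 11. All 26 intron lengths and all 25 internal exon lengths were identical. The first exon measured 137 bases in the gene model against 209 in the GENCODE transcript, and the last 471 against 601. No other gene model in the table overlapped it. The nearest one downstream began 2854 bases past its end, on the minus strand, and had 936 to 1929 counts per library in Irf3_2D and 359 to 814 in EGFP, while Nos2 had at most 3 counts in any of these 6 libraries. With LPS this neighbour had 575 to 855 counts in shIrf3 and 594 to 618 in shLuc. Without LPS it had 588 to 931 in shIrf3 and 435 to 696 in shLuc, where Nos2 also had at most 3 counts per library. Without strand, stray reads of a neighbour cannot be told from those of Nos2.

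**Figure D1:**
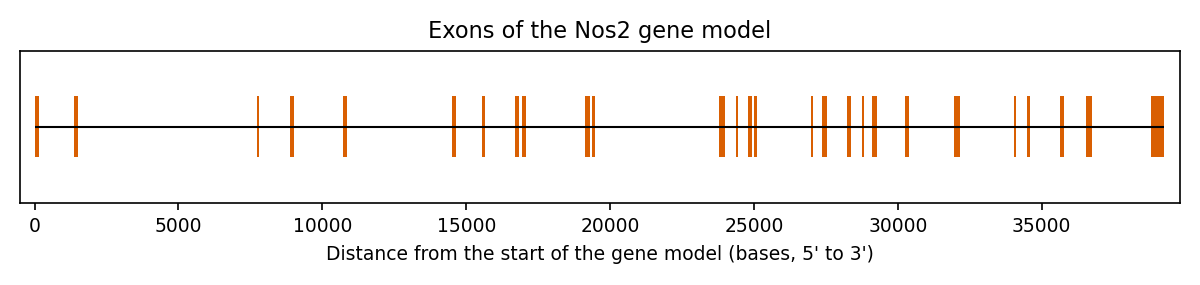
Exons of the Nos2 gene model in the deposited table, drawn to scale as boxes along the distance from its start (x axis, in bases, 5' to 3'), with introns as a line. The 27 exons are short and spread over the whole span, and the last one, of 471 bases, is the longest.

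Total counts per library ran from 22143302 to 34368259. Gene models on the mitochondrial chromosome held 2.88% to 14.2% of the counts in the shLuc libraries, the widest range of any group. In the groups where Nos2 was expressed this share was 5.82% to 6.39% in shIrf3 with LPS and 4.21% to 4.52% in shLuc with LPS. The log2 fold change of Nos2 in shIrf3 with LPS over shLuc with LPS was -0.14 with the mitochondrial gene models left out (edgeR adjusted p = 0.480) and -0.14 with them. The table's identifiers could not be paired with names, 0 of 27473 matching the name tables used here. The level of Irf3 itself, the adipocyte markers and the other genes of the nitric oxide and Toll-like receptor pathways are therefore not analysed here, and the group labels and the cell type are taken as given.

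With LPS, Nos2 was expressed in all 6 libraries. It had 1003, 827 and 760 counts in shIrf3 with LPS, and 946, 1064 and 1151 counts in shLuc with LPS. On the CPM scale (counts per 1000000 of the library's total, corrected with TMM factors), these were 31.9, 32.1 and 31.6 CPM in shIrf3 with LPS, and 32.4, 33.8 and 39.5 CPM in shLuc with LPS. The shIrf3 libraries with LPS lay close together, and shLuc replicate 3 with LPS was the highest of all 18 libraries. Per kilobase of exon this was 7.93 to 8.06 RPKM in shIrf3 with LPS and 8.13 to 9.89 RPKM in shLuc with LPS. On this length-corrected scale, from 58.2% to 63.1% of the 14970 gene models tested in the hairpin arm lay below Nos2 in each library with LPS. Nos2 was thus in the middle of the expressed range of these adipocytes, not among its most abundant transcripts. In bulk RNA, few cells with much Nos2 and many cells with little cannot be told apart.

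Without LPS, Nos2 was at or near the limit of detection in every group, including both overexpression groups. Over the 12 libraries without LPS it had 9 counts in all, and 8 of these libraries had none. Irf3_2D libraries had 0, 0 and 3 counts, and EGFP libraries had 0, 0 and 0. The shIrf3 libraries had 0, 2 and 3 counts, and the shLuc libraries 0, 0 and 1. No library exceeded 3 counts, the number taken as the floor, which corresponds to 0.0920 to 0.144 CPM in Irf3_2D, 0.0998 to 0.130 in EGFP, 0.0972 to 0.125 in shIrf3 and 0.102 to 0.114 in shLuc. Intervals and floors cover counting error only.

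**Figure D2:**
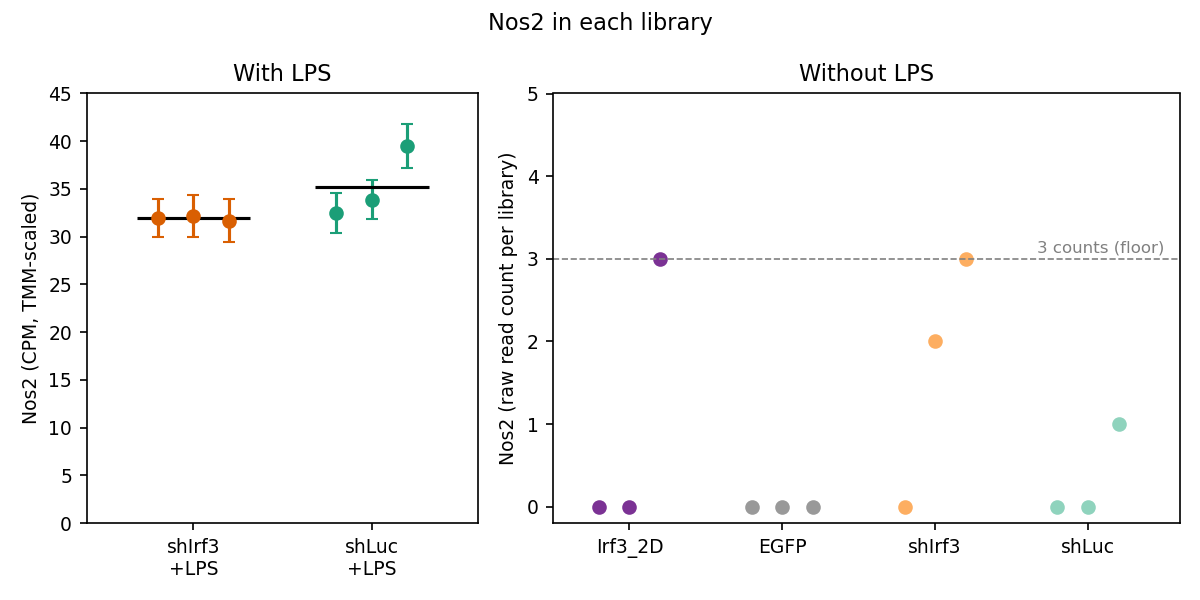
Nos2 in every library, 3 per group. Left, TMM-scaled CPM (y axis, from 0) with LPS, where points are libraries, bars are exact 95% Poisson intervals and lines are group means; the shIrf3 libraries lie at 31.6 to 32.1 CPM and the shLuc libraries at 32.4 to 39.5 CPM. Right, raw counts without LPS, where no library exceeds the dashed line at 3 counts.

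Ordered by their mean level, the groups ran from shLuc with LPS (35.2 CPM) and shIrf3 with LPS (31.9 CPM) to shIrf3 (0.0592 CPM), Irf3_2D (0.0368 CPM), shLuc (0.0127 CPM) and EGFP (listed at 0). The CPM of the overexpression arm were scaled separately from those of the hairpin arm. Among the groups without LPS the neighbours in this order could not be told apart at this depth. Exact 95% Poisson intervals on their summed counts, 0.0199 to 0.143 CPM in shIrf3, 0.00767 to 0.109 CPM in Irf3_2D, 0.000301 to 0.0663 CPM in shLuc and 0 to 0.0470 CPM in EGFP, all overlapped. The pair with LPS is taken up further on.

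The size of the difference with LPS is bounded by the few reads without it. In knockdown cells the summed count was 2590 in shIrf3 with LPS, against 5 in shIrf3, a ratio of 520 after scaling, with an exact 95% counting interval from 223 to 1604. In control cells it was 3161 in shLuc with LPS, against 1 in shLuc, a ratio of 2960 with an interval from 531 to 116967. The intervals of both hairpin lines overlap between 531 and 1604. Single libraries without LPS set these ratios. The ratio was 877 without shIrf3 replicate 3, and in control cells it was 1927 without shLuc replicate 1 and 1958 without shLuc replicate 2, while shLuc replicate 3 held the only read of its group.

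Under LPS, Nos2 was slightly lower in the cells with the Irf3 hairpin than in those with the control hairpin, by an amount that did not pass the test. Nos2 averaged 31.9 ± 0.248 CPM in shIrf3 with LPS and 35.2 ± 3.73 CPM in shLuc with LPS (SD, n = 3 each). The log2 fold change was -0.14 with a standard error of 0.11 (edgeR quasi-likelihood test, Benjamini-Hochberg adjusted p = 0.492), or 0.906 of the control level, with a 95% interval from 0.775 to 1.06. In the same comparison 8.20% of the 14970 gene models were called at an adjusted p under 0.05, with 4.90% called higher and 3.31% lower. A fall of Nos2 to below 0.775 of its control level lies outside that interval. The absence of a call does not show that the level was the same in both lines. As the labels give the duration of LPS only for the knockdown cells, hairpin and LPS duration cannot be told apart in this comparison.

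The values of the groups with LPS did not overlap, since each shIrf3 library lay below each shLuc library. This was also the case, in the same direction, for 17.3% of all gene models tested. The distance rested largely on shLuc replicate 3 with LPS, at 39.5 CPM. Without that library the log2 fold change was -0.05 (edgeR adjusted p = 0.888), and over all the alternative fits the adjusted p ran from 0.168 to 0.888. Counting error alone gave a narrower interval for the ratio of summed counts, from 0.861 to 0.955, but it compares these libraries and holds no spread between replicates.

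**Figure D3:**
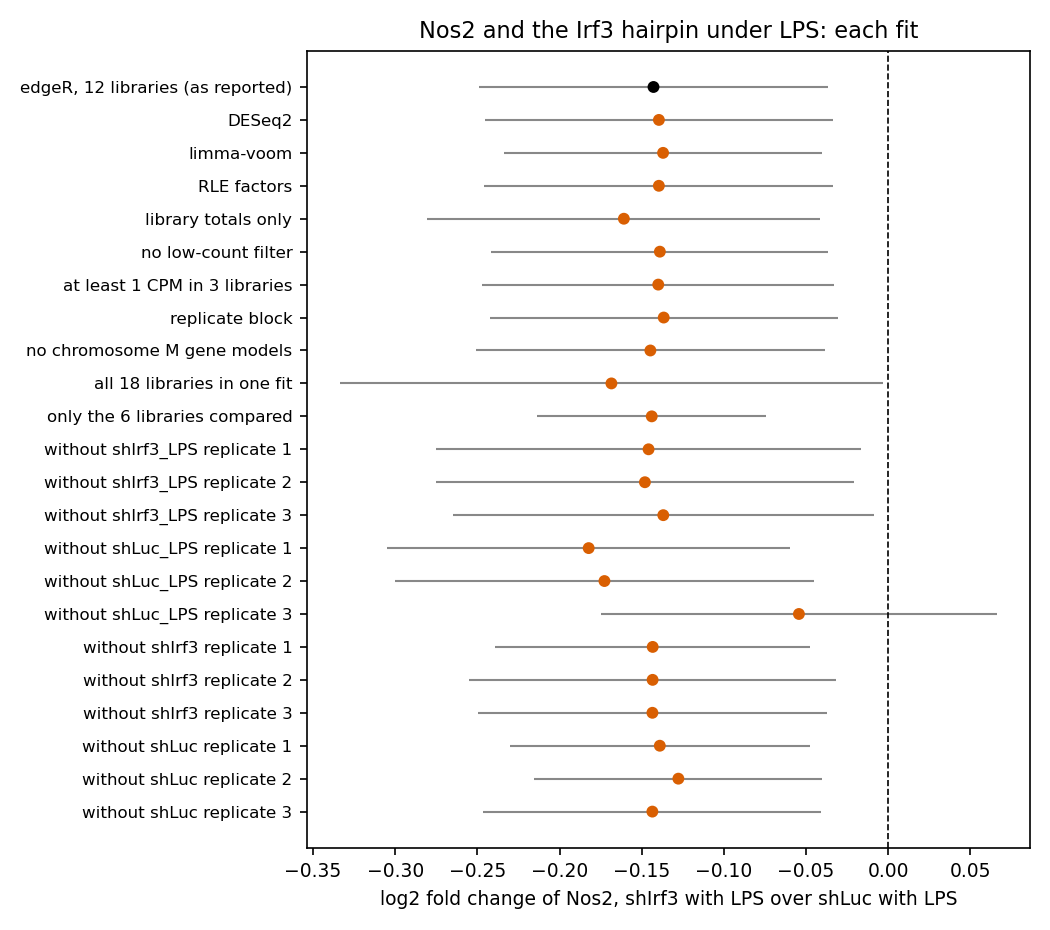
Log2 fold change of Nos2 in shIrf3 with LPS over shLuc with LPS (x axis) in each fit (rows), with bars of 1 standard error; the black point is the fit reported. All values lie below 0, from -0.18 to -0.05, and the one nearest 0 leaves out shLuc replicate 3 with LPS.

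The spread of Nos2 differed between the groups with LPS. The SD over libraries was 0.248 CPM in shIrf3 with LPS and 3.73 CPM in shLuc with LPS, where counting error alone gives an SD of 1.09 and 1.08 CPM per library. The shIrf3 libraries thus lay closer together than counting error gives on average, and the shLuc libraries farther apart; with 3 libraries each, this difference in spread was not tested.

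Set among all gene models, the Nos2 difference was of ordinary size. Its log2 fold change under LPS was larger than that of 21.1% of the gene models tested, and 52.6% of them differed by less in either direction. The median over all gene models was 0.00. Nos2 thus sits on the lower side of the middle of the distribution of hairpin effects under LPS.

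**Figure D4:**
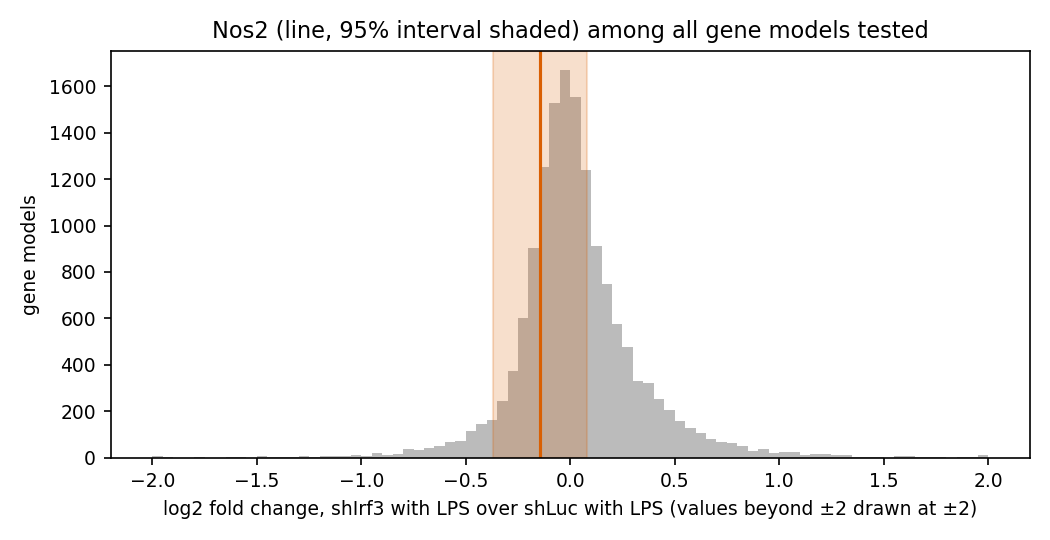
Log2 fold changes of all 14970 gene models in shIrf3 with LPS over shLuc with LPS (x axis) as a histogram of gene models (y axis), with values beyond 2 in size drawn at the ends. The line marks Nos2 at -0.14 and the band its 95% interval, which spans 0.

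Whether LPS acted on Nos2 to a different degree in the knockdown cells could not be settled from these counts. The fitted difference of the log2 LPS effects, knockdown minus control, was -2.15 with edgeR and -1.37 with limma-voom. It rests on 5 counts in shIrf3 and 1 count in shLuc without LPS, so its size depends on the prior count of the fit. It was -1.46 without shIrf3 replicate 3. Without shLuc replicate 3 no read remained in shLuc, and the fitted -4.03 is then no estimate of the difference. Nos2 entered this fit through its groups with LPS, and the contrast holds the values for which it was chosen, so no p-value is given.

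Without LPS the depth did not allow Nos2 to be compared between the hairpins. The summed counts were 5 in shIrf3 and 1 in shLuc, a ratio of 5.16 with an exact 95% counting interval from 0.577 to 244. In these 6 libraries alone Nos2 did not pass the low-count filter, so no test is given. At these counts the interval holds both a modest decrease and a large increase. In the overexpression arm Nos2 did not pass the low-count filter and was not tested. The 3 counts in Irf3_2D all came from replicate 3.

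Few gene models of the hairpin arm combined a count near 0 without LPS with clear expression under it. Nos2 was chosen for this pattern, so its own presence among them and its high count there follow from the choice, at any limit. Of 27473 gene models, 10107 had at most 5 counts summed over each hairpin group without LPS. Of these, 3 had at least 100 counts summed over each group with LPS, Nos2 among them. Nos2 had 2590 and 3161 summed counts in shIrf3 and shLuc with LPS. The second, uc007kpn.1, a gene model of 1 exon on chromosome 11 (83461345 to 83462880), had 117 and 336. The third, a gene model of 6 exons on chromosome 12 (105501332 to 105507575), had 221 and 255. Nos2 had the highest count in both groups. It was also the longest of the 3, with 3990 bases of exon against 1536 and 2193, and these counts are not corrected for length. The limit of 5 equals the Nos2 count in shIrf3. With limits of 10 and 20, chosen after seeing the data, 6 and 8 gene models qualified, and Nos2 again had the highest count in both groups. In the overexpression arm, also without LPS, Nos2 had 3 summed counts in Irf3_2D and 0 in EGFP, uc007kpn.1 had 1 and 8, and the third had 0 and 9. Under LPS, uc007kpn.1 fell to 1.42 ± 0.209 CPM in shIrf3, against 3.75 ± 0.431 CPM in shLuc (SD, n = 3 each; log2 fold change -1.38, SE 0.21, edgeR adjusted p = 0.00137), while the third had 2.66 ± 0.686 and 2.85 ± 0.300 CPM (edgeR adjusted p = 0.890). Whether Nos2 and uc007kpn.1 differ in their response to the hairpin was not tested.

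The pattern of Nos2 over the 12 hairpin libraries was most like that of uc007crg.2, a gene model of 10 exons on chromosome 1 (136078981 to 136086608). Likeness was Pearson's correlation of log2 CPM, among 10304 gene models whose highest group averaged 5 CPM or more. It was 0.998 for uc007crg.2 and 0.997 for the second, uc008deg.1, a gene model of 41 exons on chromosome 17 (57343396 to 57367559). These libraries fall into a cluster with LPS and one without, so the correlation mostly records that split. They hardly stood apart, as the next had 0.995 and 18 gene models exceeded 0.98. With a prior count of 0.5 the same pair came first, at 0.993 and 0.990. By ranks both had a tied Spearman correlation of 0.831, below the highest of 0.965, so the choice of this pair rests on the measure.

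The level of uc007crg.2 was 15.1, 13.1 and 14.1 CPM in shIrf3 with LPS, and 14.1, 13.0 and 14.4 CPM in shLuc with LPS. Without LPS it was 0.374, 0.615 and 0.527 CPM in shIrf3, and 0.443, 0.386 and 0.457 CPM in shLuc, so this gene model was detected without LPS where Nos2 was at its floor. Per kilobase it reached 8.35 RPKM in shIrf3 with LPS and 8.17 RPKM in shLuc with LPS, close to the level of Nos2. The gene model uc008deg.1 was far more abundant, at 513 RPKM in shIrf3 with LPS and 498 RPKM in shLuc with LPS. In CPM it had 2634 ± 126 in shIrf3 with LPS, against 164 ± 22.6 in shIrf3, and 2554 ± 29.5 in shLuc with LPS, against 119 ± 13.6 in shLuc (SD, n = 3 each). Neither was called for the hairpin under LPS, with log2 fold changes of 0.03 ± 0.10 for uc007crg.2 and 0.04 ± 0.10 for uc008deg.1 (SE, edgeR adjusted p = 0.903 and 0.861). Only 8.20% of the 14970 gene models were called in this comparison. Both were also picked for likeness to Nos2 over libraries that include those compared, so sharing its lack of a call is no separate result.

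**Figure D5:**
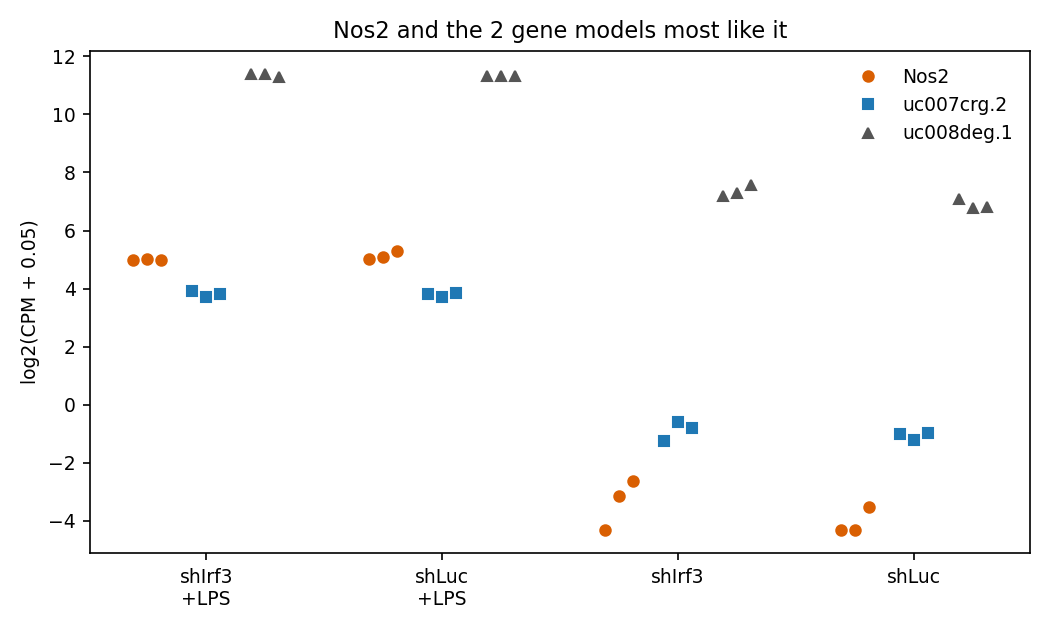
Log2(CPM + 0.05) of Nos2, uc007crg.2 and uc008deg.1 (y axis) in the 12 libraries of the hairpin arm, with 3 points per group. All 3 are higher in the groups with LPS, and Nos2 has the lowest values without LPS.

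The gene models near Nos2 were set beside all gene models. Of 18 other gene models within 500000 bases on chromosome 11, 14 were tested. With LPS, 0 of the 14 were called by edgeR in shIrf3 cells and 0 in shLuc cells, where 8.01% and 8.72% of all gene models were called. With only 14 gene models, 0 calls does not set the neighbours apart from these shares. At an unadjusted p under 0.05, a looser limit than that of these shares, there were 2 of the 14 in each. The share of all gene models at that looser limit was not counted for LPS, so this count has nothing to be read against. Their log2 fold changes with LPS ran from -0.24 to 0.15 in shIrf3 cells, with a median of -0.05, and from -0.15 to 0.28 in shLuc cells, with a median of -0.03. For the hairpin under LPS, 2 of the 14 were called lower and 0 higher, against 3.31% lower and 4.90% higher over all gene models. At an unadjusted p under 0.05 there were 6 of the 14, of which 3 were higher, against 3216 of the 14970 gene models tested. Whether the neighbours differ from all gene models in this was not tested. Their log2 fold changes ran from -0.47 to 0.81, with a median of -0.04 against 0.00 over all gene models.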

How the data were processed

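The deposited table holds raw counts of reads per gene model, not normalized. The submitters' processing notes name bcl2fastq (2.17.1.14) and TopHat2 (2.0.14), then Picard (2.2.4) and SAMtools (0.1.19), with featureCounts (1.4.6), edgeR and build mm9; how these were set is not given in the sources used here. Per the labels' protocols, libraries came from 70 ng of total RNA after a ribosomal RNA removal step, with a TruSeq kit that does not mark strand. Groups came from the sample titles. Nos2 and the lists were chosen with earlier results of these data known. Tests used edgeR 4.0.16 in R 4.3.3 (filterByExpr, TMM, robust quasi-likelihood fit of the 12 hairpin libraries, Benjamini-Hochberg adjustment over 14970 gene models, threshold 0.05), tested on simulated data. The interaction was taken from this fit as a value without a test. DESeq2 1.42.0 and limma 3.58.1 (voom) were among the alternatives, with other scalings, filters and samples. RPKM used the exon lengths in the deposited table. Named by rule were Nos2, the 2 gene models most like it and those silent without LPS (at most 5 summed counts per group) but expressed with it (at least 100). Depth set precision through exact Poisson and binomial intervals (SciPy 1.17.1). Same-group pairs of libraries all differed beyond sampling noise.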

Additional observations from a re-analysis of the deposited data

How the results depend on the processing

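For the hairpin under LPS, Nos2 kept its direction and stayed uncalled in all 22 alternatives. Leaving out single libraries gave log2 fold changes from -0.18 to -0.05, and other settings gave -0.17 to -0.14. With the replicate number as a block the value was -0.14, and the call did not change. Deviations of same-numbered libraries correlated from -0.03 to 0.11, above 0.1 in 1 of 18 pairs. Those of libraries with unlike numbers correlated from -0.10 to 0.07. Whether the numbers pair the libraries was not tested. For the interaction and the hairpin without LPS, where 5 and 1 counts set the result, the fitted values ran from -4.03 to -1.46 and from 1.32 to 3.89 without single libraries and were -2.14 and 2.00 with the block. The fitted values say nothing about stability, and -4.03 and 3.89 came without shLuc replicate 3, which left no read in shLuc. No alternative was run for overexpression, nor for the hairpin without LPS from its 6 libraries alone, because Nos2 failed the low-count filter there. The hairpin under LPS had 1228 calls over all gene models, 378 with all 18 libraries in one fit and 2848 with only the 6 compared. Ratios with LPS over without ran from 1927 to 3072 in shLuc and from 367 to 877 in shIrf3 when single libraries were left out, except without shLuc replicate 3, where no read remained in the group without LPS. Scaled by library totals alone, the mean was 32.5 CPM in shIrf3 with LPS and 36.3 CPM in shLuc with LPS, and without mitochondrial gene models in the totals 34.6 and 38.0 CPM. Depth limits all statements on Nos2 without LPS.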
